A study of Mus musculus with 12 samples.

Results

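The 7 genes of the Fos and Jun families were followed in MIN6, a mouse beta-cell line able to release insulin. These genes are Fos, Fosb, Fosl1, Fosl2, Jun, Junb and Jund. They were taken by symbol from the deposited tables of 54022 genes, and all 7 were found. Cells received 100 nM trimethylamine N-oxide (TMAO), a metabolite that gut microbes help to make from choline, or vehicle for 18 h. They were then stimulated with low (2.8 mM) or high (16.8 mM) glucose after a fast. The scheme for these libraries gives no length for the stimulation, which was 1 h in the study's insulin secretion assay. The 4 groups were low glucose with vehicle, low glucose with TMAO, high glucose with vehicle and high glucose with TMAO, each with 3 biological replicates of 1 cell line. Each of the 12 libraries held between 16793162 and 22340542 fragments counted on genes. All 10 beta-cell markers, among them Ins1, Ins2, Pdx1 and Mafa, had a mean of at least 1 FPKM (fragments counted on a gene, scaled to gene length and library size). Of the islet hormones of other cells, Gcg was also read, with a median of 218.9 FPKM.

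Positions are given on mm10, as in the deposited tables. Fos (ENSMUSG00000021250) lies on the plus strand at chr12:85473890-85477273 and Fosl2 (ENSMUSG00000029135) on the plus strand at chr5:32135801-32157842. Fosb (ENSMUSG00000003545) is on the minus strand at chr7:19302696-19310051 and Fosl1 (ENSMUSG00000024912) on the plus strand at chr19:5447703-5455945. Among the Jun genes, Jun (ENSMUSG00000052684) is on the minus strand at chr4:95049034-95052222, and 2 are on chromosome 8, with Junb (ENSMUSG00000052837) on the minus strand at chr8:84974484-84978718 and Jund (ENSMUSG00000071076) on the plus strand at chr8:70698949-70700616.

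Fos and Jun proteins are the subunits of AP-1, a transcription factor that binds DNA as a dimer of basic leucine zipper (bZIP) proteins. Jun proteins can pair with each other or with a Fos protein, whereas Fos proteins need a Jun partner. Several of these genes are immediate-early genes, which are transcribed within minutes of a stimulus without new protein synthesis, through serum response elements and cAMP response elements (CRE) in their promoters. In beta cells, glucose closes potassium channels, and the calcium entry that follows activates MAP kinases and CREB, both of which act on such elements.

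In low glucose with vehicle, the family was made up mostly of Jun transcripts. Junb, which encodes a Jun protein with weaker activating ability than c-Jun, had the highest level at 24.6 ± 0.789 FPKM (SD, n = 3). Jun, the gene of c-Jun, followed at 20.6 ± 0.552 FPKM. Jund, the member most often described as constitutively expressed, was at 4.24 ± 0.558 FPKM. The Fos genes lay lower, with Fosl2 (Fra-2) at 2.63 ± 0.0449, Fosl1 (Fra-1) at 1.44 ± 0.343, Fos (c-Fos) at 1.11 ± 0.177 and Fosb at 0.457 ± 0.0632 FPKM. Libraries of neighbours in this order did not overlap, except for Fosl1 and Fos. Low glucose with TMAO gave the same order, again with overlap between Fosl1 and Fos alone. The counts behind these levels were modest for the low members, with 44 to 59 fragments for Fos, 46 to 61 for Fosb and 34 to 53 for Fosl1 per library in low glucose with vehicle.

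The family's make-up differed between glucose levels. Summed over the 7 genes, the level was 55.1 ± 1.52 FPKM in low glucose with vehicle and 103.9 ± 5.63 FPKM in high glucose with vehicle. With TMAO the sums were 59.7 ± 4.48 and 105.2 ± 4.69 FPKM. The 4 Fos genes held 10.2% ± 0.509 of the sum in low glucose with vehicle and 24.9% ± 1.64 in high glucose with vehicle, and 10.7% ± 0.503 and 26.5% ± 0.782 with TMAO. Junb accounted for 65.7% of the difference between the vehicle sums, Fosl2 for 25.1%, Fos for 13.2% and Fosb for 2.64%, with Jun subtracting from it. Among the Jun genes, the Junb to Jun ratio of FPKM was 1.199 ± 0.0645 in low and 3.27 ± 0.137 in high glucose with vehicle, and 1.29 ± 0.0668 and 3.61 ± 0.0316 with TMAO. In high glucose with vehicle the order of levels was Junb, Jun, Fosl2, Fos, Jund, Fosb and Fosl1, with overlapping libraries for Jun and Fosl2 and for Fosb and Fosl1. The order in high glucose with TMAO was the same, and there the libraries of Jun and Fosl2 were the overlapping pair.

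**Figure D1:**
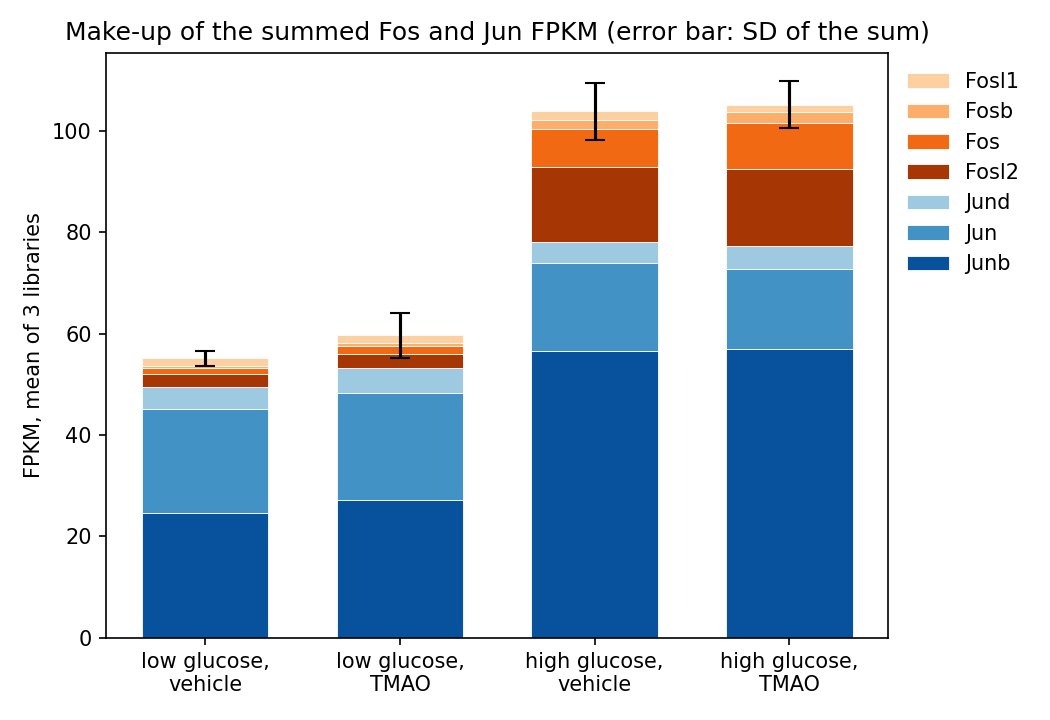
Stacked bars of the mean FPKM of the 7 Fos and Jun genes in each of the 4 groups (n = 3 libraries), with Jun genes in blue, Fos genes in orange and the SD of the summed level as the error bar. The bars stand at 55.1 and 59.7 FPKM in low glucose and at 103.9 and 105.2 FPKM in high glucose, and the orange part widens from 10.2% to 24.9% of the bar with vehicle.

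The first comparison asked how the family responds to glucose in cells given vehicle. Fos, Fosl2, Fosb and Junb rose in high glucose, Jun fell slightly, and Fosl1 and Jund did not pass the test. Thus 4 of the 7 members were called higher, against 1.99% of all 16222 tested genes, and 1 was called lower, against 1.31%. A gene was called at an adjusted p under 0.05 in edgeR's quasi-likelihood test on counts, with all 12 libraries in the fit and Benjamini-Hochberg adjustment over all tested genes. Fold changes and their 95% intervals below are from that fit, and all 7 members passed its filter on low counts. The vehicle libraries of the 2 glucose levels did not overlap for those 5 members, as was the case for 18.8% of all tested genes. In RNA from whole cultures, more transcript per cell and more cells with the transcript cannot be told apart.

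Fos, the classic immediate-early gene of the family, read 1.32, 1.02 and 1.00 FPKM in the 3 low glucose libraries and 6.78, 7.96 and 7.89 FPKM in the 3 high glucose libraries with vehicle. Every high glucose library lay far above the highest low glucose one. The fold change was 6.76 (5.54 to 8.25, adjusted p = 2.48e-15 in edgeR), which ranked 9 among all tested genes by size of rise. Fosl2 encodes Fra-2, whose transcript usually accumulates later and for longer than that of Fos after serum. It read 2.68, 2.59 and 2.63 FPKM in low and 13.8, 13.4 and 17.4 FPKM in high glucose. The low libraries were close together, and the third high library stood above the other two. Its fold change was 5.66 (5.02 to 6.37, adjusted p = 2.34e-14 in edgeR), rank 12.

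Fosb, whose shorter splice product ΔFosB is known for its stability, had the lowest level of the family in low glucose. Its libraries read 0.387, 0.511 and 0.472 FPKM in low and 1.63, 1.58 and 2.03 FPKM in high glucose with vehicle. The groups were well apart, with a fold change of 3.81 (3.10 to 4.68, adjusted p = 3.36e-11 in edgeR). The gene-level counts do not separate the full-length and shorter forms. Junb, the most abundant member, read 24.2, 24.2 and 25.5 FPKM in low and 58.5, 52.7 and 58.8 FPKM in high glucose. Its fold change of 2.30 (2.12 to 2.50, adjusted p = 4.37e-16 in edgeR) was smaller than that of the Fos genes that rose, while its difference in level was the greatest of the family at 32.0 FPKM.

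Jun was the only member called lower. Its libraries read 21.2, 20.4 and 20.1 FPKM in low and 18.2, 16.6 and 17.1 FPKM in high glucose with vehicle, so the groups were separate but near each other. The fold change was 0.844 (0.769 to 0.925, adjusted p = 0.0282 in edgeR). This call rested on the choice of test and on single libraries: the adjusted p was 0.115 and 0.112 with limma on log2(FPKM + 1) and log2(FPKM + 0.1). In edgeR it was 0.131 without replicate 1 and 0.0830 without replicate 2 of low glucose with vehicle, and 0.136 without replicate 2 and 0.117 without replicate 3 of high glucose with vehicle. Fosl1, a Fos gene often studied in invasive tumour cells, read 1.60, 1.04 and 1.66 FPKM in low and 2.16, 1.38 and 1.51 FPKM in high glucose. The libraries overlapped and the interval of the fold change, 0.856 to 1.61, was wide. Jund read 4.63, 3.60 and 4.50 FPKM in low and 3.87, 4.09 and 4.04 FPKM in high glucose, also with overlap, and a fold change of 0.944 (0.783 to 1.14). On the log2 scale this was -0.084, and it ran from -0.19 to -0.016 with 1 library at a time left out.

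**Figure D2:**
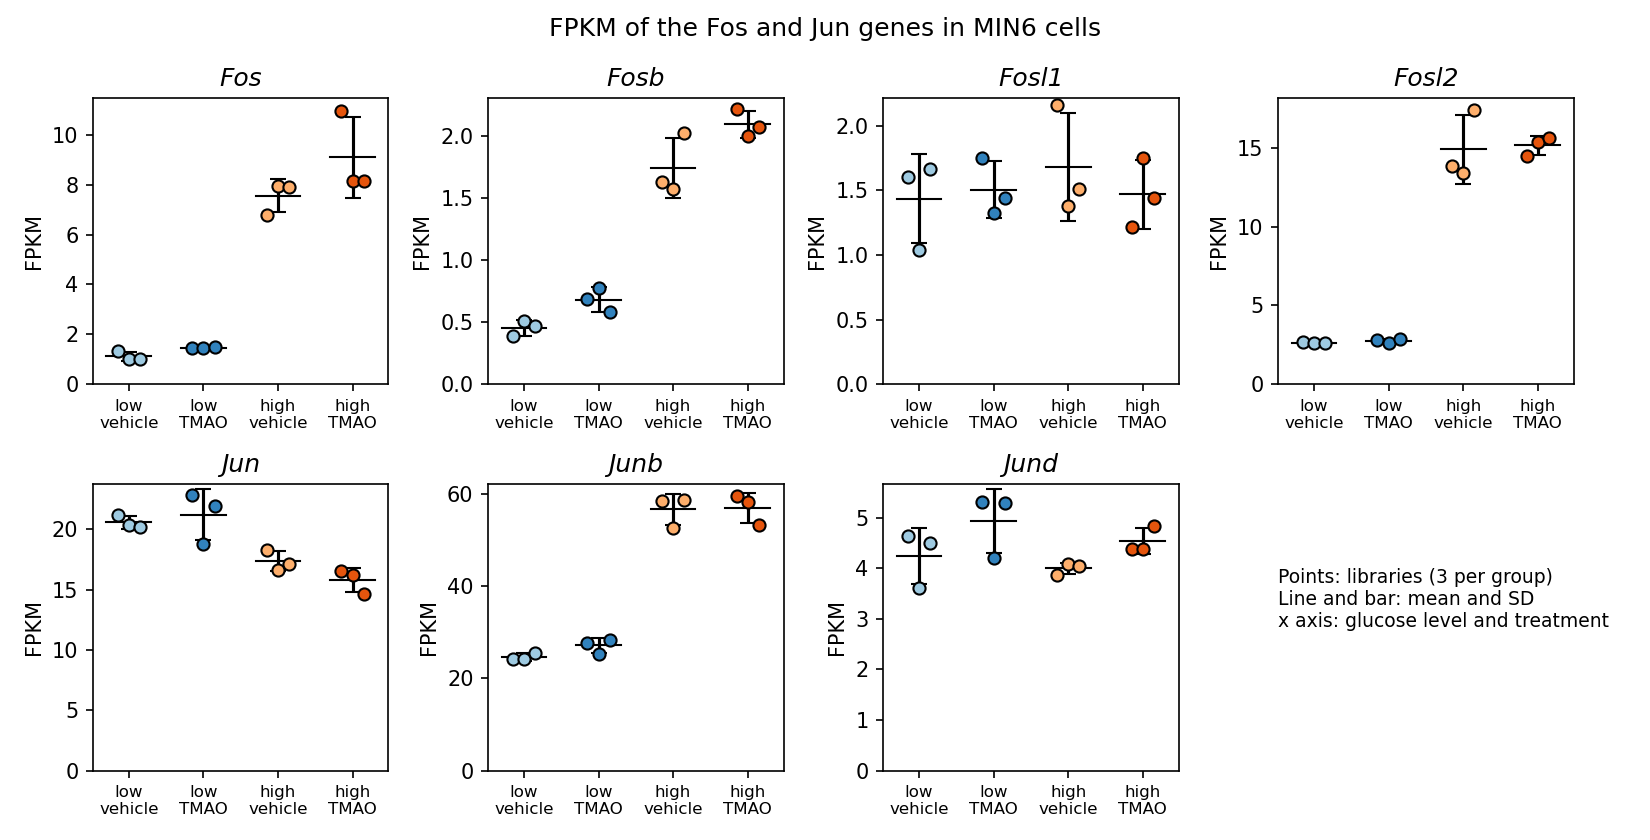
FPKM (linear axis from 0) of each family member in the 12 libraries, by glucose level and treatment; points are libraries, and the line and bar are the mean and SD of 3. Fos, Fosb, Fosl2 and Junb sit apart between low and high glucose with either treatment (Fos at 1.00 to 1.498 against 6.78 to 10.97 FPKM), Jun is lower in high glucose, and Fosl1 and Jund overlap.

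The same comparison was made in cells given TMAO, on 6 other libraries. Again Fos, Fosl2, Fosb and Junb rose and Jun fell, so that 4 members were called higher against 2% of tested genes, and 1 lower against 1.64%. Libraries of these 5 did not overlap, as for 18.4% of tested genes. Fos read 1.47, 1.44 and 1.498 FPKM in low and 10.97, 8.15 and 8.14 FPKM in high glucose, a fold change of 6.17 (5.12 to 7.43, adjusted p = 2.06e-15 in edgeR). The first high glucose library was the highest of all 12 for Fos. Fosl2 read 2.78, 2.60 and 2.85 against 14.5, 15.4 and 15.6 FPKM, with a fold change of 5.53 (4.92 to 6.22, adjusted p = 2.98e-14 in edgeR). The values for Fosb were 0.685, 0.780 and 0.582 against 2.22, 2.001 and 2.08 FPKM, with a fold change of 3.07 (2.54 to 3.71, adjusted p = 3.22e-10 in edgeR). Its low glucose libraries were above those with vehicle.

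For Junb the TMAO libraries read 27.7, 25.3 and 28.4 FPKM in low and 59.5, 58.3 and 53.3 FPKM in high glucose, with a fold change of 2.10 (1.94 to 2.28, adjusted p = 6.70e-15 in edgeR). Jun read 22.8, 18.8 and 21.95 against 16.5, 16.2 and 14.6 FPKM. Here its fold change was 0.747 (0.680 to 0.819, adjusted p = 6.88e-05 in edgeR), and the call held in every alternative test and without each library in turn, where the adjusted p reached 0.00766 at most. Fosl1 (fold change 0.988, 0.720 to 1.36) and Jund (0.919, 0.767 to 1.10) overlapped between glucose levels. The log2 fold change of Jund was -0.12, and it ran from -0.22 to -0.065 with 1 library at a time left out. Fosl1 ranged over 1.32 to 1.75 FPKM in low and 1.22 to 1.75 FPKM in high glucose with TMAO, and Jund over 4.21 to 5.31 and 4.38 to 4.83 FPKM.

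Whether TMAO itself moved the family was asked at each glucose level. In low glucose 0 of 7 members were called, where 0.00616% of tested genes (1 gene) were. Without adjustment, 3 members had a p under 0.05 in the edgeR fit, as did 2.2% of all tested genes. Fosb was higher with TMAO in every library (0.582 to 0.780 against 0.387 to 0.511 FPKM), with a fold change of 1.49 (1.19 to 1.88, unadjusted p = 0.00131 and adjusted p = 1.00 in edgeR). Fos was also higher in every library (1.44 to 1.498 against 1.00 to 1.32 FPKM), with a fold change of 1.32 (1.02 to 1.69, unadjusted p = 0.0323). Libraries did not overlap for 6.36% of all tested genes in this comparison. Junb overlapped between the groups (27.7, 25.3 and 28.4 against 24.2, 24.2 and 25.5 FPKM), with a fold change of 1.10 (1.01 to 1.199, unadjusted p = 0.0248 in edgeR). Same-numbered libraries deviated together here. Read as pairs, 5 members (Fos, Fosb, Fosl2, Junb and Jund) were higher with TMAO in 3 of 3 pairs, as were 11.4% of all tested genes. Jund read 5.31, 4.21 and 5.28 FPKM with TMAO against 4.63, 3.60 and 4.50 FPKM with vehicle, with a fold change of 1.163 (0.969 to 1.39, unadjusted p = 0.101 in edgeR). Its log2 fold change was 0.22, and 0.11 without replicate 2 of low glucose with vehicle. With the replicate number as a block on these 6 libraries alone edgeR called 27 of 15543 genes and 0 members. In that fit the adjusted p was 0.358 for Fosb, 0.738 for Junb and 1.00 for Fos.

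In high glucose 0 of 7 members were called with TMAO, and 0% of tested genes were. Unadjusted, 2 members had a p under 0.05, as did 5.35% of tested genes. Fos was again higher in every TMAO library (8.14 to 10.97 against 6.78 to 7.96 FPKM), with a fold change of 1.2004 (1.03 to 1.40, unadjusted p = 0.0192 and adjusted p = 0.910 in edgeR). The first TMAO library carried most of it: the others read 8.15 and 8.14 FPKM, just above the top vehicle library, and without replicate 1 of high glucose with TMAO the log2 fold change was 0.11 in place of 0.26. Fosb overlapped by the lowest TMAO library (2.001 to 2.22 against 1.58 to 2.03 FPKM), with a fold change of 1.204 (1.01 to 1.43, unadjusted p = 0.0343 in edgeR). Jun was lower in every TMAO library (14.6 to 16.5 against 16.6 to 18.2 FPKM), with a fold change of 0.912 (0.830 to 1.00), or -0.13 on the log2 scale, and -0.083 without replicate 3 of high glucose with TMAO. Jund was higher in every one (4.38 to 4.83 against 3.87 to 4.09 FPKM), with a fold change of 1.13 (0.940 to 1.36). Libraries did not overlap for 11.1% of all tested genes. The intervals for Fosl2 (0.919 to 1.13) and Junb (0.932 to 1.09) were narrow around 1, and that of Fosl1 (0.646 to 1.21) was wide. Each TMAO comparison shares its libraries with both glucose comparisons.

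A direct test asked whether the glucose response differed between TMAO and vehicle. The interaction called 0 of 7 members, and 0% of tested genes. All 7 estimates were below 0 on the log2 scale, from -0.31 for Fosb to -0.03 for Fosl2, beside a median of -0.0012 over all tested genes. They share the same 12 libraries and are not 7 independent results. Each subtracts the TMAO effect in low glucose, where all 7 members had estimates above 0. The sign for Fos turned with limma on log2(FPKM + 1), where the value was 0.0044, and those for Fosl2 and Jund turned when some single libraries were left out. Sizes also rested on single libraries: leaving out 1 library at a time, Fosb ran from -0.41 to -0.20, the smallest without replicate 3 of high glucose with vehicle, and nearly as small without replicate 1 of low glucose with vehicle or replicate 2 of low glucose with TMAO. Fos ran from -0.28, without replicate 1 of high glucose with TMAO, to -0.056, without replicate 2 of that group. No member had an unadjusted p under 0.05, where 3.36% of tested genes did, and the smallest was 0.0658 in edgeR, for Jun, where the log2 difference of responses was -0.18 (interval -0.37 to 0.01). For Fosb the interval ran from -0.73 to 0.10 and for Fos from -0.55 to 0.29.

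**Figure D3:**
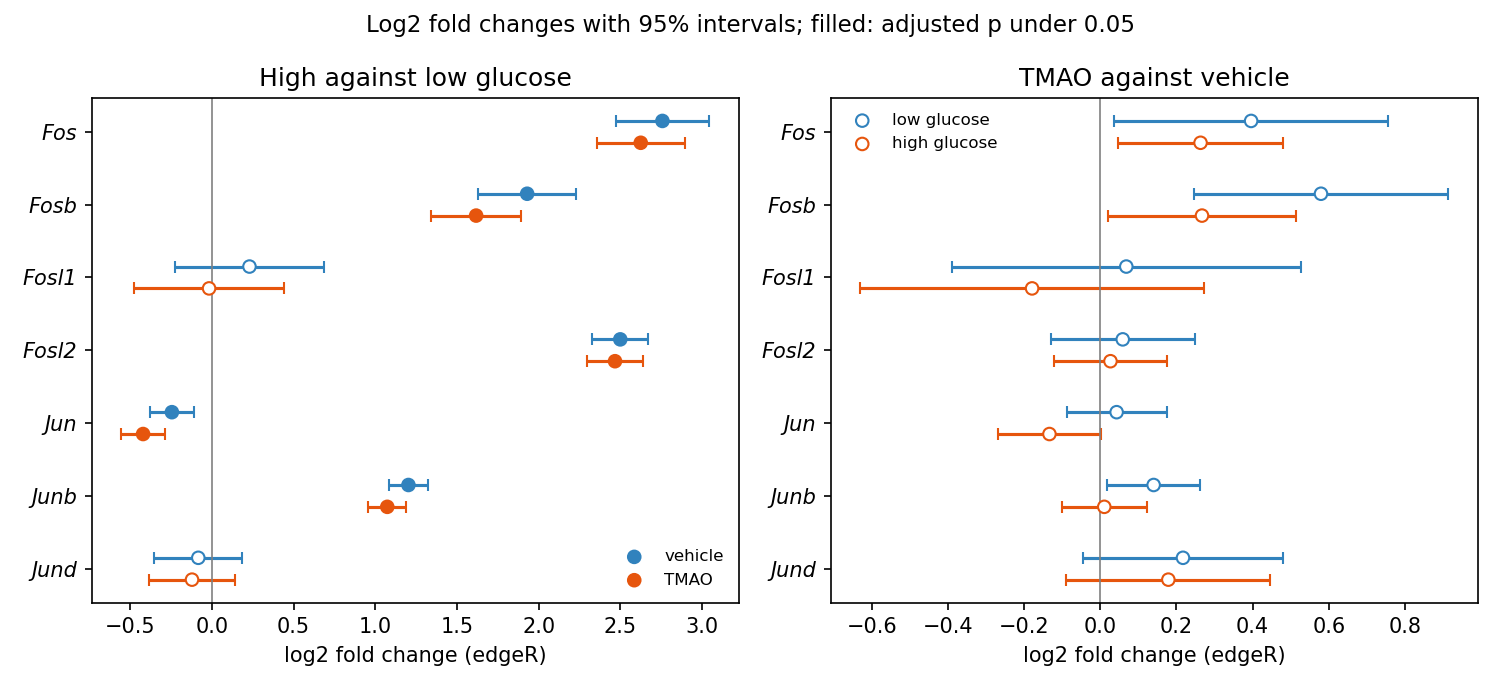
Log2 fold changes of the 7 members with 95% intervals from edgeR, for high against low glucose (left) and TMAO against vehicle (right, on a narrower axis); filled points have an adjusted p under 0.05. The filled points are the 5 members called with each treatment on the left, from Jun at -0.42 to Fos at 2.76, and there is none on the right.

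Promoter sequences were examined because 4 members moved together with glucose. RefSeq windows on GRCm38.p6, from 250 bases before to 50 bases from the annotated start, were matched for 6 of the 7 genes, all but Fosl1. The windows of Fos, Fosb and Junb, which rose, and of Jun, which fell, are printed in the direction of transcription. They lie at chr12:85473640-85473939 (plus strand), chr7:19309996-19310295, chr8:84978699-84978998 and chr4:95052173-95052472 (the last 3 on the minus strand). Capitals mark the CRE core TGACG, the CRE-like TGACATCA, the TATA box TATAAA and the CCAAT box, each searched on both strands.
Fos: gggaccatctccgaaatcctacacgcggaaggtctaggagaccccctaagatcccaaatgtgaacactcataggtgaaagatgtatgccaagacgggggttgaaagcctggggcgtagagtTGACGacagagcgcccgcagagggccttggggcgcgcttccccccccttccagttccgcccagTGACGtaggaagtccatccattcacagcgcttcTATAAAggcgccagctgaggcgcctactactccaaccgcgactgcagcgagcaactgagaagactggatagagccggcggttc
Fosb: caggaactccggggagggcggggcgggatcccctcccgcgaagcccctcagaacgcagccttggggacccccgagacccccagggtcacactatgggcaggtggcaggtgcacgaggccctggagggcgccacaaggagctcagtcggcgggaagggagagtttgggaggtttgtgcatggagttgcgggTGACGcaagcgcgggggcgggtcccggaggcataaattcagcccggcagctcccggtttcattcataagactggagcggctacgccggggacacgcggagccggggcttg
Junb: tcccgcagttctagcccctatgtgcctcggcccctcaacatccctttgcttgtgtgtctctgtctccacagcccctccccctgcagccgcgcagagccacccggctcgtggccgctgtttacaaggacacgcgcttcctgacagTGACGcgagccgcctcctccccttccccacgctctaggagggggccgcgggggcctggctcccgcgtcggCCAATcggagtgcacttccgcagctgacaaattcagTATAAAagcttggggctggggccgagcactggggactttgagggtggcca
Jun: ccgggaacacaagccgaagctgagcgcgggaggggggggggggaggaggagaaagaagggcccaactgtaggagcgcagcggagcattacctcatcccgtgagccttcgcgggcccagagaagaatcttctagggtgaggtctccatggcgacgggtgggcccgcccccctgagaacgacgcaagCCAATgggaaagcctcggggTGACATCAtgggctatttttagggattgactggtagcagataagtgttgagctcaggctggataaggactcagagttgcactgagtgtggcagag

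The CRE core TGACG was present in the Fos, Fosb and Junb windows, or 3 of the 6, and in 20.8% of all 32851 RefSeq windows. Counting the start as base 0, Fos had matches that began at -129 and -66, Fosb at -60 and Junb at -106. The CRE-like TGACATCA was present in the Jun window alone, beginning at -45, and in 3.62% of all windows. TATAAA occurred in Fos at -33 and in Junb at base 0, where the RefSeq start lies 30 bases upstream of the start in the deposited tables, and in 13.6% of all windows. CCAAT occurred in Jun and Junb (37.4% of all windows). The GC box GGGCGG, not in capitals, occurred in Fos, Fosb, Fosl2 and Jun (35.7% of all). The full CRE TGACGTCA, which contains the core, the AP-1 element TGACTCA and the CArG box of the serum response element were found in none of the 6, and in 1.79%, 5.20% and 1.63% of all windows. The windows reach only 250 bases before the RefSeq start, so elements further upstream could not be found. The RefSeq start of Fosl2 lies 671 bases downstream and that of Jund 1210 bases upstream of the tables' own starts. These 2 windows are therefore not printed, though they are counted among the 6. A match is a run of letters and not a measured binding site.

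**Figure D4:**
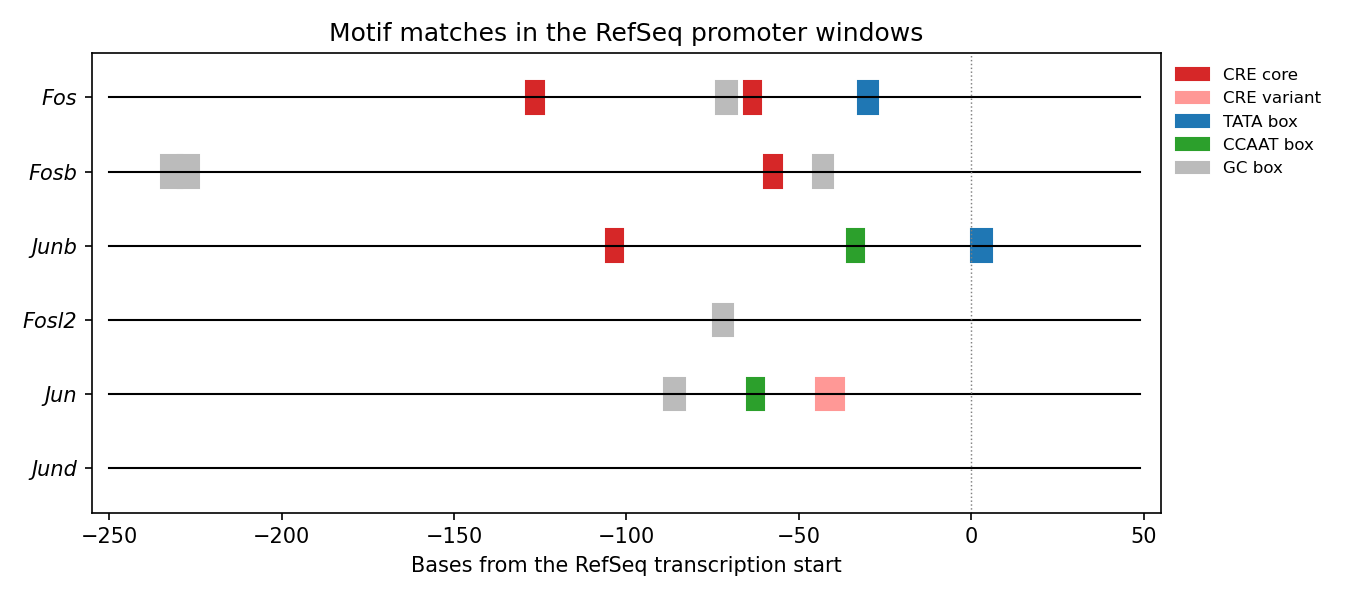
Positions of motif matches in the 6 RefSeq promoter windows, in bases from the RefSeq start (dotted line), with the 4 members that rose with glucose on top. CRE cores lie at -129 to -56 in Fos, Fosb and Junb, the CRE-like match of Jun lies at -45 to -38, and the Jund window holds no match. The RefSeq start of Jund lies 1210 bases upstream, and that of Fosl2 671 bases downstream, of the start in the deposited tables.

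Genes that act with or on the family were examined in 6 lists. High against low glucose called 5 of their 68 tested genes with vehicle (7.35%, against 3.3% of all tested genes) and 6 with TMAO (8.82%, against 3.64%). Of 5 tested bZIP partners, Atf3, a stress-induced partner of Jun proteins, rose with glucose with vehicle and with TMAO (log2 fold change 0.40, adjusted p = 0.0173, and 0.38, adjusted p = 0.0298, in edgeR). Jdp2, a repressor of AP-1, had 0.21 and 0.09, and neither passed. Batf and Batf2 were too low to test. Of 25 genes for MAP kinases and the kinases next to them, 0 were called with either treatment, with a median log2 fold change of -0.0199 with vehicle beside 0.0021 over all tested genes. Of 6 tested ubiquitin ligase genes that act on Jun proteins, 0 were called.

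Among 15 factors of serum response elements and CREs, Crem and Mef2d rose. Crem, whose short form ICER represses CRE-driven genes, read 3.45 ± 0.109 FPKM in low and 7.17 ± 1.29 FPKM in high glucose with vehicle, a log2 fold change of 1.05 (adjusted p = 2.02e-05 in edgeR) with vehicle and 1.02 with TMAO (adjusted p = 3.02e-05). Mef2d, a calcium-responsive factor, had 0.37 (adjusted p = 1.65e-06) and 0.24 (adjusted p = 0.00128). Mkl1, a coactivator of SRF, fell with TMAO (log2 fold change -0.39, adjusted p = 0.00358 in edgeR) and had -0.27 with vehicle (adjusted p = 0.0602). Srf, Elk1 and Creb1 did not pass, with 0.03, 0.09 and 0.00 with vehicle.

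Of 8 genes for proteins that bind AU-rich elements, which shorten the life of Fos transcripts, Zfp36 (tristetraprolin) rose. It read 1.53 ± 0.110 FPKM in low and 2.66 ± 0.142 FPKM in high glucose with vehicle, with log2 fold changes of 0.80 (adjusted p = 5.58e-05 in edgeR) with vehicle and 0.56 with TMAO (adjusted p = 0.00451). Of 17 genes listed as AP-1 targets 9 could be tested, and Dusp1, a phosphatase that switches off MAP kinases, was the 1 called. It rose from 10.7 ± 0.832 to 38.7 ± 2.36 FPKM with vehicle, a log2 fold change of 1.85 (adjusted p = 2.75e-20 in edgeR), and had 1.81 with TMAO (adjusted p = 3.73e-20). The other 8 tested targets, among them Vegfa, Hmox1, Spp1 and Cd44, were not called, and their log2 fold changes lay between -0.13 and 0.47 with vehicle and between -0.45 and 0.15 with TMAO. Plaur, the urokinase receptor gene, was at the top of the first range and at the bottom of the second, where all its high glucose libraries lay below the low glucose ones. Its level was very low, at 0.215 ± 0.0812 FPKM in low and 0.299 ± 0.0588 FPKM in high glucose with vehicle. With TMAO it was 0.206 ± 0.0163 and 0.152 ± 0.0302 FPKM. Its interaction estimate was -0.92 on the log2 scale (SE 0.578) and was not called by edgeR's quasi-likelihood test, with an unadjusted p of 0.122 and an adjusted p of 0.9998. Of the 68 genes tested on these lists, 0 were called for TMAO against vehicle at either glucose level or for the interaction, again against 0.00616%, 0% and 0% of all tested genes.

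**Figure D5:**
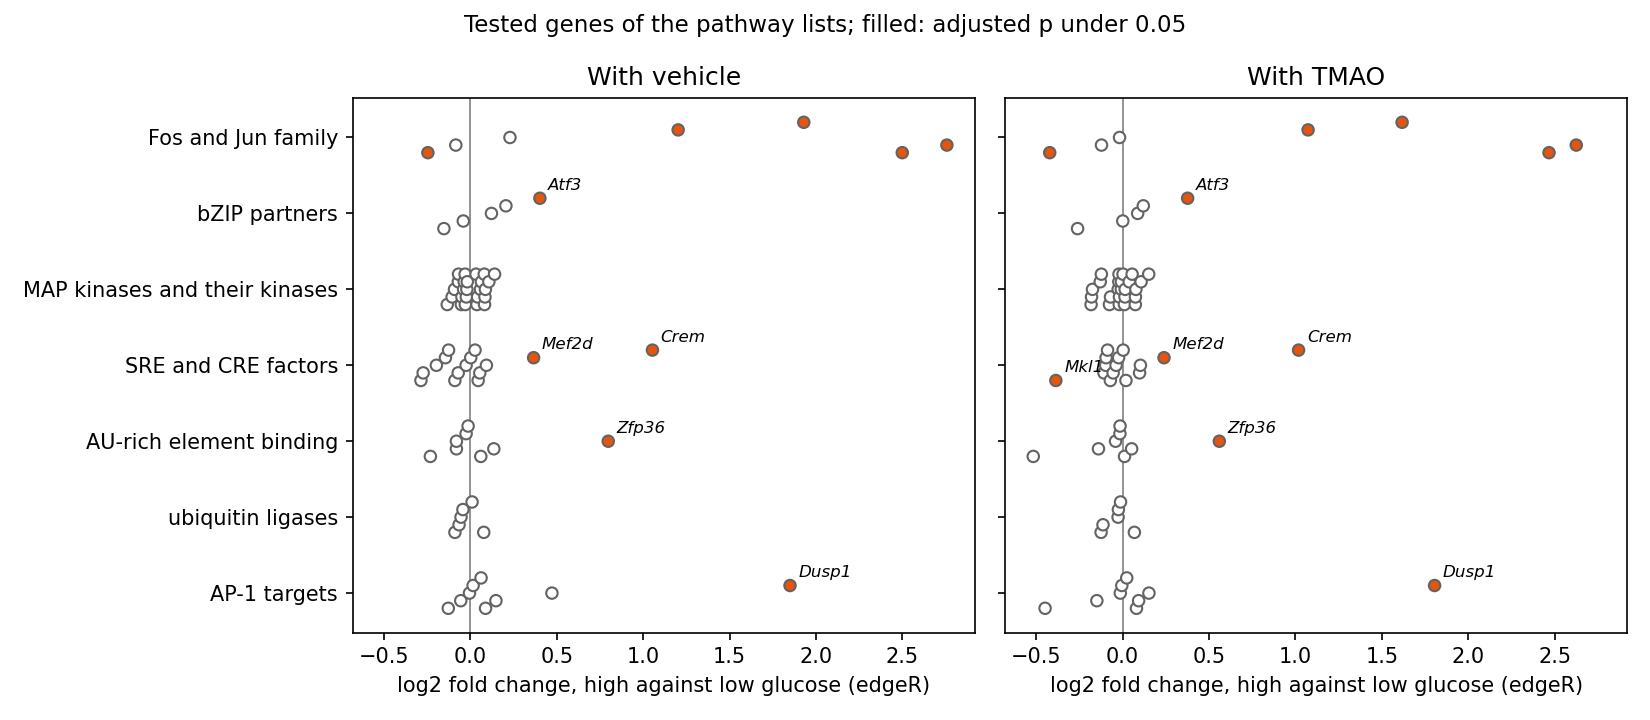
Log2 fold change of high against low glucose for each tested gene of the family and of the 6 lists, with vehicle (left) and TMAO (right); filled points have an adjusted p under 0.05 in edgeR, and vertical spread within a row only separates points. In the lists the filled points are Atf3, Crem, Mef2d, Zfp36 and Dusp1 with either treatment and Mkl1 with TMAO, whereas 5 of the 7 family members are filled in each panel.

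Genes whose values ran most like those of each called member were found across the 12 libraries, as the root mean square difference of centred log2 counts scaled to library size among 12308 genes with a mean of at least 50 counts. For Fos these were Fosl2 (0.238), Egr1 (0.239) and Nr4a1 (0.278). For Fosb they were Dusp6 (0.207), Dusp1 (0.229) and Nr4a2 (0.242). The nearest to Fosl2 were the noncoding RNA gene B230216N24Rik (0.180), Nr4a3 (0.217) and Egr1 (0.217). Per1 (0.0851), Dusp4 (0.0896) and Stk35 (0.110) were nearest to Junb, and Brd2 (0.0585), Camsap3 (0.0597) and Ccdc166 (0.0614) to Jun. Egr and Nr4a genes encode other immediate-early transcription factors, and Dusp genes encode phosphatases of MAP kinases. The difference scales with how far a gene moves, so values are not comparable between members, and the libraries share the glucose contrast.

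Some counts could include reads of an overlapping gene, since the strand setting of the counting is not given in the sources used here. Junb shares 351 bases with Prdx2 on the other strand (mean 4557 counts), Jun shares 689 bases with the antisense RNA Junos (mean 18.2 counts), and Jund shares 919 bases with Gm11175 (0 counts). Prdx2 had a log2 fold change of 0.08 with vehicle and -0.01 with TMAO for glucose, and Junos 0.23 and 0.06, and none of these passed the edgeR test (adjusted p from 0.527 to 0.962). Their part in the member counts was not tested. The summed levels of 2 marker lists for other cell types did not overlap between glucose levels with either treatment. This was not tested, and 18.8% (vehicle) and 18.4% (TMAO) of single tested genes were apart in the same way. The other islet hormones (4 genes, nearly all Gcg) summed to 203.8 to 218.4 FPKM in low and 225.1 to 229.6 FPKM in high glucose with vehicle, and to 200.7 to 213.5 and 224.2 to 228.3 FPKM with TMAO. For the 4 immune markers the summed level was 2.88 to 3.62 FPKM in low and 4.38 to 4.88 FPKM in high glucose with vehicle, and 3.87 to 4.14 and 4.18 to 4.35 FPKM with TMAO. The immune sums were thus also apart between treatments, higher with TMAO in low and lower with TMAO in high glucose. Nearly all of that was Cd68, while Ptprc and Adgre1 were at 0 in all 12 libraries. The beta-cell markers summed to 40283 to 43809 FPKM in low and 43994 to 45546 FPKM in high glucose with vehicle, and overlapped with TMAO (39278 to 44931 and 43619 to 46722 FPKM). The part of these markers in the family's changes was not tested.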

How the data were processed

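RNA from MIN6 cells was sequenced by the authors after poly-T selection with the NEBNext Ultra kit. The submitters' processing notes name HISAT2 2.0.5, featureCounts 1.5.0-p3, DESeq2 1.16.1 and mm10. The authors deposited raw fragment counts per gene and FPKM values for the 12 libraries, and raw reads were not used here. FPKM is the count scaled to gene length in kilobases and to library size. Groups and replicate numbers come from the sample labels. Counts were tested in R 4.3.3 with edgeR 4.0.16 (filterByExpr, TMM, robust quasi-likelihood F test, all 12 libraries, Benjamini-Hochberg adjustment over 16222 genes). Alternatives used DESeq2 1.42.0, limma 3.58.1 on log2 FPKM (pseudocounts 1 and 0.1), other filters, fewer libraries and the replicate number as a block. Deviations of same-numbered libraries correlated at 0.135 to 0.398 for TMAO against vehicle in low glucose, so these numbers, taken from the labels, were treated as pairs, and for no other comparison. Named genes are the 7 members, called list genes, the 3 genes of most similar pattern and overlapping genes; others were named after their values were seen. Members and lists were chosen with earlier results of these data known. Figures were drawn with matplotlib 3.10.9.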

Additional observations from a re-analysis of the deposited data

How the results depend on the processing

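The number of members called stayed at 5 for glucose with TMAO and at 0 for TMAO at either glucose level and for the interaction under every alternative run. For glucose with vehicle it was 4 or 5, and Jun was the member lost. The replicate number as a block changed no call of a member: the counts stayed at 5, 5, 0, 0 and 0. Fitted on the 6 libraries of a comparison, an alternative chosen after seeing the data, the block gave 5, 5, 0 and 0. With the block Fosl1 had a log2 fold change of 0.0040 for glucose with TMAO, and with limma on log2(FPKM + 1) Fos had an interaction of 0.0044; each had the other sign in the edgeR fit on all libraries. Leaving out 1 library at a time, these uncalled values changed sign: Fosl1 ranged from -0.18 to 0.11 for glucose with TMAO, from -0.12 to 0.19 for TMAO in low glucose and from -0.34 to 0.043 in high glucose, Jun from -0.012 to 0.12 in low glucose, Fosl2 from -0.044 to 0.15 and Junb from -0.041 to 0.055 in high glucose, and in the interaction Fosl2 from -0.10 to 0.093 and Jund from -0.14 to 0.068. The causes were not tested. Fosl1 had 34 to 69 counts per library, and its glucose intervals were the widest of the family on the log2 scale.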
